A study of Caenorhabditis elegans with 11 samples.

Results

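Whether the nhr-180 mutation acts differently on the transcriptome in the presence and in the absence of atfs-1 was measured as the interaction in a design of 2 genes by 2 states. The interaction is the log2 fold change of the double mutant over atfs-1(null) minus the log2 fold change of nhr-180 over wildtype. It was computed for all 16013 of the 46926 genes in the count table that passed a standard filter on low counts, and it used all 11 of the 11 libraries. The libraries came from whole Caenorhabditis elegans harvested as L4 larvae, the last larval stage, after growth on HT115 E. coli as food. There were 3 libraries of the double mutant atfs-1(null)_nhr-180(cmh19), 3 of atfs-1(null), 2 of nhr-180(cmh19), replicates 2 and 3, and 3 of wildtype. RNA was extracted with Trizol from entire animals and read from both ends in stranded libraries. What the cmh19 and atfs-1(null) alleles change in the DNA is not stated in the labels. The labels call the replicates biological and name no shared day or batch, so p-values measure the spread between these samples.

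The gene atfs-1 encodes a bZIP transcription factor that mitochondria normally import and degrade. When import falters, the protein reaches the nucleus and turns on chaperone, import and metabolic genes, a response known as the mitochondrial unfolded protein response (UPR). The gene nhr-180 encodes a nuclear hormone receptor, a member of a family of ligand-regulated transcription factors that is greatly expanded in nematodes and controls many metabolic and developmental genes. When a pair of mutations acts on a gene independently, their log2 effects add and the interaction is zero. A negative interaction means that the nhr-180 mutation raised the transcript less, or lowered it more, in animals without atfs-1 than in animals with it. A positive interaction means the reverse.

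Total counts per library lay between 20860822 and 22921602. Transcript of atfs-1 lay between 2.55 and 3.58 CPM (counts divided by the TMM-normalized library size, on the usual counts-per-M scale) in the double mutant and between 0.42 and 4.2 CPM in atfs-1(null), against 40.8 and 47.4 CPM in nhr-180 and 52.3 to 54.7 CPM in wildtype. Transcript of nhr-180 was low throughout, at 0.423 to 0.563 CPM in the double mutant against 4.25 to 5.13 CPM in atfs-1(null), and at 0.268 and 0.407 CPM in nhr-180 against 3.05 to 4.05 CPM in wildtype. Both loci therefore went with their labels. The atfs-1(null) libraries were uneven at atfs-1, with 0.42 CPM in replicate 1 against 4.2 and 3.51 CPM in replicates 2 and 3. Replicate 1 of atfs-1(null) and replicate 2 of wildtype stood apart from the other libraries of their genotypes. The chi-square per gene between replicate counts was 124.2 and 161.4 for pairs with that atfs-1(null) library and 32.3 for the pair without it, and it was 59.9 and 23 for pairs with that wildtype library and 11.4 for the pair without it. Replicate 3 of the double mutant also lay apart, at 52.9 and 87.6 for pairs with it and 21.2 for the pair without it. It was left out only in fits that left out 1 library each. The words libraries that stand apart are used below for replicate 1 of atfs-1(null) and replicate 2 of wildtype only. Leaving out replicate 1 of atfs-1(null) raised the number of genes called in the interaction to 456, against 182 with all libraries. Leaving out both libraries that stand apart gave 482. Counts below are with all libraries unless a library is named as left out.

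Of the 16013 genes tested, 182 (1.14%) were called in the interaction by edgeR's quasi-likelihood test at a Benjamini-Hochberg adjusted p under 0.05. The interaction was positive in 44 (0.275%) and negative in 138 (0.862%), so that 24.2% of the calls were positive. At an unadjusted p under 0.05 there were 2380 genes. Without replicate 1 of atfs-1(null) the split was 187 positive and 269 negative, or 41% positive, and without both libraries that stand apart it was 221 positive and 261 negative, or 45.9% positive. The excess of negative calls was thus smaller in those fits, and no gene of the 182 changed sign in any fit that left out a library.

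The effect of the nhr-180 mutation by itself was called for 71 genes (0.443%) without atfs-1, 50 higher (0.312%) and 21 lower (0.131%) in the double mutant than in atfs-1(null). It was called for 358 genes (2.24%) with atfs-1, 252 higher (1.57%) and 106 lower (0.662%) in nhr-180 than in wildtype. These counts were 812 without atfs-1 and 1042 with it when replicate 1 of atfs-1(null) was left out, so the size of the gap between them depended on that library, and they were 982 and 555 when both libraries were left out, where the order was the reverse. The SD of the log2 fold changes over all genes was 0.455 without atfs-1 and 0.602 with atfs-1. The effects share no library, and across the 16013 genes, which are not independent replicates, they had Pearson's r of 0.096 and Spearman's rho of -0.013. Among 11488 genes with at least 5 CPM in a genotype the values were 0.115 and -0.038.

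Genes called in one background had medians nearer zero in the other. Since the genes were picked by their call in the first background, smaller medians in the other follow in part from that choice. The 50 genes higher without atfs-1 had a median log2 fold change of 3.1 there and of 0.71 with atfs-1, and 42 of them had the same sign in both. The 21 genes lower without atfs-1 had medians of -1.41 and -0.04, and 11 had the same sign. The 252 genes higher with atfs-1 had a median of -0.18 without atfs-1, against 1.58 with it. Of those, 90 had the same sign in both backgrounds, and the interaction was called for 118. The 106 genes lower with atfs-1 had medians of -0.14 without atfs-1 and -1.32 with it, with 67 of the same sign. Genes called in the same direction in both backgrounds numbered 6, namely nhr-180 itself, K07A1.6, acdh-1, acdh-2, Y22D7AR.10 and C45B2.1, and these were named after their values were seen.

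**Figure D1:**
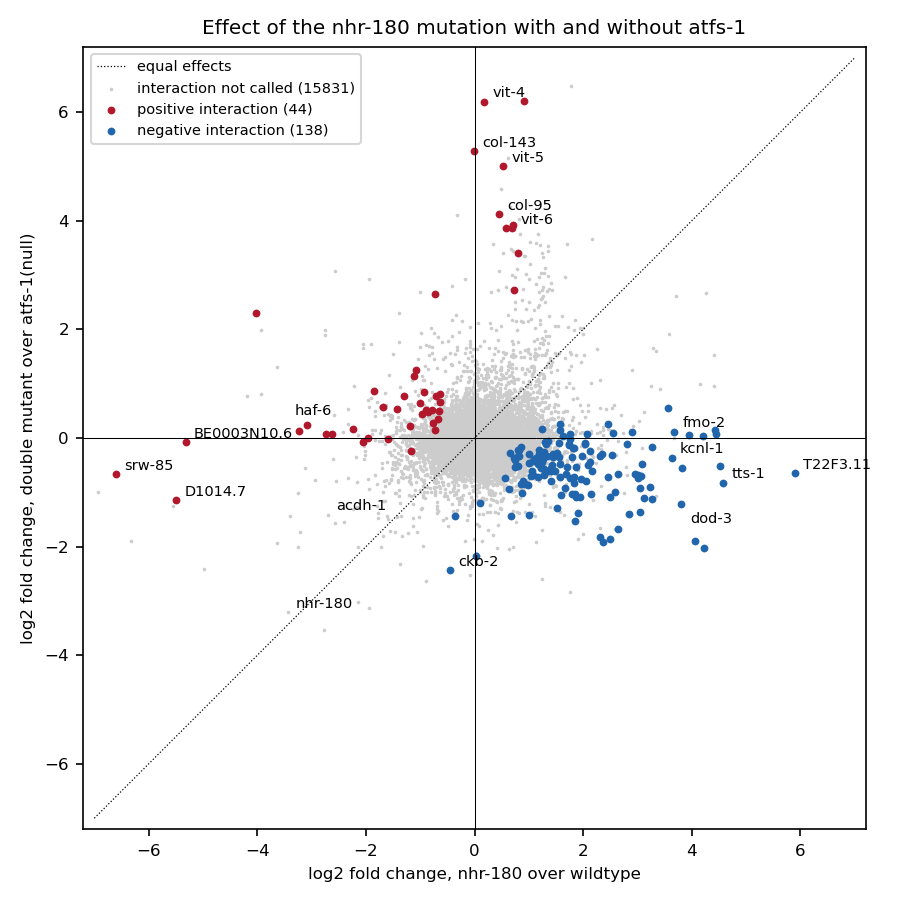
Log2 fold change of the double mutant over atfs-1(null) (vertical axis) against that of nhr-180 over wildtype (horizontal axis), 1 point per gene tested. The 138 genes with a negative interaction (blue) lie mostly to the right near and below the horizontal axis, the 44 with a positive interaction (red) lie mostly to the left near that axis and upward along the vertical axis, and nhr-180 lies near the dotted line of equal effects.

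Of the 138 negative interactions, 114 were of genes called higher with atfs-1 and not called without it. A further 15 were called in neither background, 5 were called lower without atfs-1 only, and 4 were lower without atfs-1 and higher with it. Of the 44 positive interactions, 21 were of genes called lower with atfs-1 only, 11 of genes called higher without atfs-1 only, 10 of genes called in neither background, and 2 were higher without atfs-1 and lower with it. The estimated effect was larger in size with atfs-1 for 157 of the 182 genes, and 135 of these had opposite signs in the 2 backgrounds. The 182 genes were picked by the difference between these same 2 effects, so opposite signs follow in part from that choice. Over all genes tested the SD of the effects was also larger with atfs-1, at 0.602 against 0.455. These classes and sizes are from the fit with all libraries. Without both libraries that stand apart the nhr-180 effect was called for 982 genes without atfs-1 and for 555 with it. A gene not called in a background may therefore still have an effect there. On the linear scale, as a difference of differences of mean CPM, 181 of the 182 genes kept their sign.

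The called genes were also sorted by whether a single genotype stood apart, meaning that its gap to the nearest other genotype exceeded the range of the other 3 in log2 of mean CPM plus 0.5. This sorting was devised after values were seen and is a description. A gene with a genotype that stands apart in this way cannot have equal nhr-180 effects in the 2 backgrounds on that scale. The shares among called genes and among all genes therefore differ in part because of how the called genes were chosen. Wildtype stood lowest for 62 of the 182 genes (34.1%), against 7.94% of all genes tested, and nhr-180 stood highest for 23 (12.6%, against 9.2%). Wildtype stood highest for 13 (7.1%, against 7.69% of all genes tested), atfs-1(null) lowest for 9 (4.9%, against 1.96%) and highest for 6 (3.3%, against 3.9%), and nhr-180 lowest for 6 (3.3%, against 9.5%). The double mutant stood highest for 3 (1.6%, against 3.47%) and lowest for 2 (1.1%, against 3.6%), and no single genotype stood apart for 58 (31.9%, against 52.73%). Without replicate 1 of atfs-1(null) wildtype stood lowest for 79 of 456 genes (17.3%), the double mutant highest for 67 (14.7%) and atfs-1(null) lowest for 58 (12.7%).

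In the genes where wildtype was lowest, each single mutant and the double mutant had more transcript than wildtype. The noncoding RNA gene tts-1 (WBGene00006650, chromosome X from 1504131 to 1504841 in WBcel235), known as a long noncoding RNA abundant in long-lived insulin-signalling and mitochondrial mutants, had the most negative interaction among genes that the naming rule covers. Its level was 96.0, 73.8 and 110 CPM in the double mutant, against 207, 165 and 122 CPM in atfs-1(null). It was 60.8 and 63.9 CPM in nhr-180, against 1.69, 3.42 and 2.7 CPM in wildtype. All 8 mutant libraries therefore lay far above the wildtype ones, and the double mutant lay below atfs-1(null) without overlap. The log2 fold change was -0.82 ± 0.25 (SE, adjusted p = 0.28) without atfs-1 and 4.58 ± 0.31 (adjusted p = 3.93e-05) with it, and the interaction was -5.40 ± 0.39 (adjusted p = 0.000113).

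The same arrangement was seen in dod-3, a gene first described as downstream of the FOXO factor DAF-16. Its level was 14.8, 15 and 16.5 CPM in the double mutant, against 53.2, 32 and 22.7 CPM in atfs-1(null), and 7.41 and 6.56 CPM in nhr-180, against 0.375, 0.555 and 0.55 CPM in wildtype. The groups did not overlap in either background, with the double mutant below atfs-1(null) and nhr-180 above wildtype. Its interaction was -5.03 ± 0.45 (adjusted p = 0.000507). The flavin-containing monooxygenase gene fmo-2, a stress-responsive enzyme linked to long lifespan, had 29, 31.7 and 24 CPM in the double mutant, against 26, 28.4 and 23.5 CPM in atfs-1(null). It had 56.5 and 44.7 CPM in nhr-180, against 3.61, 4.39 and 3.9 CPM in wildtype. The double mutant and atfs-1(null) libraries overlapped, while nhr-180 lay wholly above wildtype, and the interaction was -3.55 ± 0.24 (adjusted p = 8.06e-05).

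The alcohol dehydrogenase gene adh-1 was the most abundant of the named genes in which wildtype was lowest. It had 695, 660 and 502 CPM in the double mutant, against 670, 550 and 499 CPM in atfs-1(null), and 705 and 641 CPM in nhr-180, against 56.3, 125 and 89.9 CPM in wildtype. The 8 mutant libraries lay between 499 and 705 CPM, above all wildtype libraries, and the interaction was -2.79 ± 0.38 (adjusted p = 0.00498). For scl-2, which encodes a secreted protein of the SCP family, the means were 139 ± 8.96 CPM (SD, n = 3) in the double mutant, 278 ± 120 CPM in atfs-1(null), 164 ± 9.5 CPM in nhr-180 (n = 2) and 27.2 ± 5.76 CPM in wildtype, with an interaction of -3.59 ± 0.39. The metallothionein gene mtl-1, whose product binds metal ions, averaged 2.51 ± 0.839 CPM in the double mutant, 5.36 ± 1.42 CPM in atfs-1(null), 3.91 ± 0.415 CPM in nhr-180 and 0.443 ± 0.0975 CPM in wildtype (interaction -4.22 ± 0.44, adjusted p = 0.00122). The calls of tts-1, dod-3, fmo-2, adh-1, scl-2 and mtl-1 were kept in all 11 fits that left out 1 library each.

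Genes of defence and lipid breakdown were among those with wildtype lowest. The C-type lectin genes clec-61 (-4.37 ± 0.53) and clec-52 (-4.31 ± 0.53), the saposin-like gene spp-2 (-2.85 ± 0.36) and the lysosomal lipase gene lipl-3 (-3.75 ± 0.41), which is induced by fasting, had negative interactions kept in all 11 fits. Levels of clec-61 averaged 12.7 ± 2.74 CPM in the double mutant, 12 ± 5.38 CPM in atfs-1(null), 9.82 ± 0.435 CPM in nhr-180 and 0.445 ± 0.19 CPM in wildtype. For lipl-3 the wildtype libraries had only 5, 5 and 8 counts. The genes pud-3 (-3.42 ± 0.60) and pud-4 (-3.55 ± 0.64), named for proteins that are up-regulated in insulin-receptor mutants, had 173 ± 29.5 and 58.9 ± 10.1 CPM in the double mutant. They had 193 ± 146 and 81.5 ± 63.9 CPM in atfs-1(null), 157 ± 1.5 and 45.4 ± 5.54 CPM in nhr-180, and in wildtype 14.7, 18.7 and 15.9 CPM of pud-3 and 5.38 ± 0.968 CPM of pud-4. These neighbouring genes share a family name, but their sequences were not compared. The split of counts between pud-3 and pud-4 is therefore uncertain. Their calls were kept only without 1 of the 3 atfs-1(null) libraries, and leaving out any of the other 8 gave adjusted p between 0.0515 and 0.109 for pud-3 and between 0.0639 and 0.129 for pud-4. In the thaumatin-like gene thn-1 wildtype was lowest too, but not by the gap that the sorting asks for. Its call (-2.79 ± 0.48, adjusted p = 0.0204) was lost without double mutant replicate 2 (0.0574), nhr-180 replicate 2 (0.101) or 3 (0.118), or wildtype replicate 1 (0.0575) or 3 (0.0706).

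**Figure D2:**
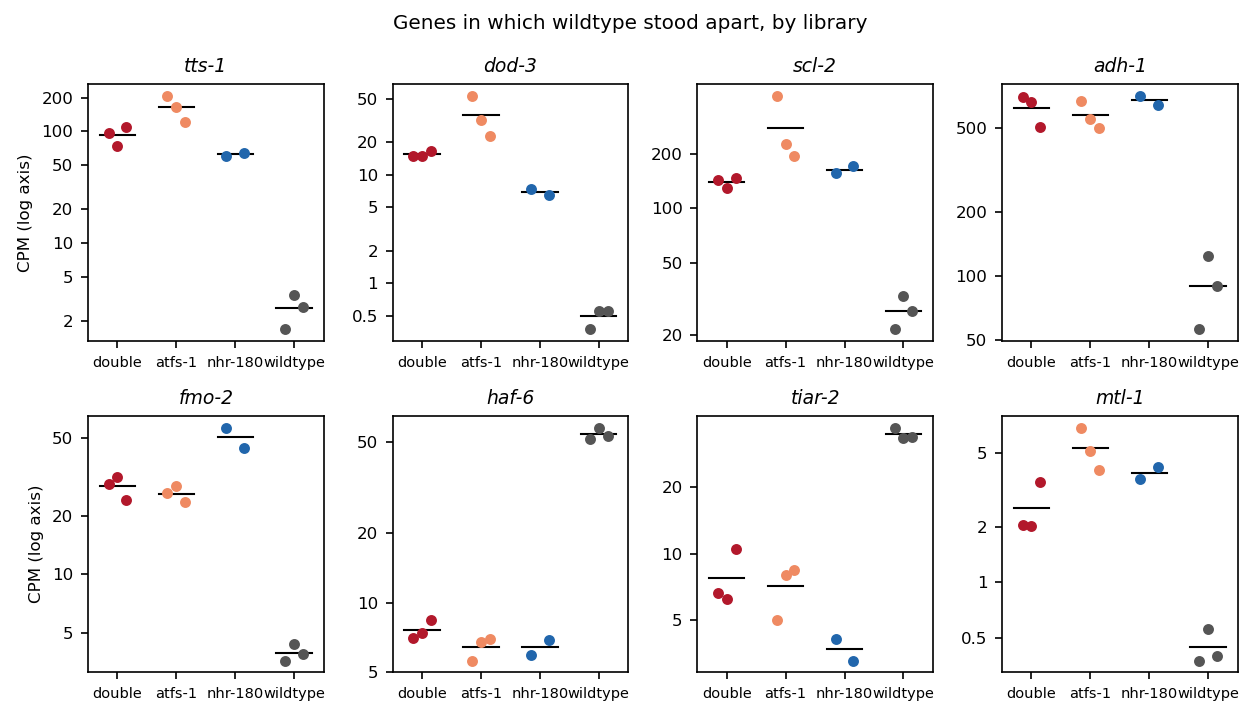
CPM per library on a log axis for 8 genes in which wildtype stood apart, with a bar at the mean of each genotype (double, the double mutant; atfs-1, atfs-1(null)). In tts-1, dod-3, scl-2, adh-1, fmo-2 and mtl-1 the 3 wildtype points lie below all 8 mutant points, and in haf-6 and tiar-2 they lie above them.

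The reverse arrangement, with wildtype highest, was found in 13 called genes, a share near that among all genes tested. The summed level of 8 intestine markers, none of them called, was also highest in wildtype, at 2280 to 2460 CPM in the double mutant, 1690 to 2730 CPM in atfs-1(null), 2480 and 2840 CPM in nhr-180 and 3160 to 3360 CPM in wildtype, and its part in the genes where wildtype stood apart was not tested. The ABC transporter gene haf-6 (WBGene00001816, chromosome I from 1162880 to 1175809) had 7.01, 7.34 and 8.37 CPM in the double mutant, against 5.58, 6.74 and 6.94 CPM in atfs-1(null). It had 5.94 and 6.87 CPM in nhr-180, against 51.8, 57.8 and 52.9 CPM in wildtype. Levels in the 8 mutant libraries were nearly equal, and every wildtype library lay far above them. The effect was 0.24 ± 0.15 without atfs-1 and -3.08 ± 0.18 with it, and the interaction 3.32 ± 0.23 (adjusted p = 8.06e-05). The gene tiar-2, which encodes an RNA-binding protein of the TIA-1 family, had means of 7.79 ± 2.38 CPM in the double mutant, 7.14 ± 1.88 CPM in atfs-1(null), 3.68 ± 0.603 CPM in nhr-180 and 34.8 ± 2.13 CPM in wildtype (3.36 ± 0.39, adjusted p = 0.00215). Both calls were kept in all 11 fits.

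Genes without a gene-class name had this arrangement at larger size, and they are named here after their values were seen. BE0003N10.6 had 0.649, 0.577 and 0.847 CPM in the double mutant, 0.881, 0.594 and 0.694 CPM in atfs-1(null), 0.625 and 2.94 CPM in nhr-180 and 85.2, 54.9 and 73.2 CPM in wildtype (5.24 ± 0.70, adjusted p = 0.00472). D1014.7 averaged 0.132 ± 0.00884 CPM in the double mutant, 0.298 ± 0.146 CPM in atfs-1(null), 0.338 ± 0.0983 CPM in nhr-180 and 15.4 ± 0.673 CPM in wildtype (4.34 ± 0.60, adjusted p = 0.00553). Wildtype was likewise highest for amt-1, an ammonium transporter gene, nhr-234, a nuclear hormone receptor gene, and vnut-1, a gene of the vesicular nucleotide transporter family. Their interactions were 2.71 ± 0.56, 2.70 ± 0.56 and 1.98 ± 0.39, with adjusted p of 0.0464, 0.0464 and 0.0386. Each of these 3 calls was lost in 9 of the 11 fits that left out a library. That of amt-1 was kept only without double mutant replicate 3 or atfs-1(null) replicate 1 (adjusted p 0.053 to 0.215 in the other fits), that of nhr-234 only without atfs-1(null) replicate 1 or nhr-180 replicate 3 (0.0641 to 0.151), and that of vnut-1 only without atfs-1(null) replicate 1 or 3 (0.0581 to 0.25).

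In a further set the nhr-180 single mutant stood apart. For kcnl-1, nlp-25, T22F3.11, srw-85, inx-3 and folt-2 the called effect of the mutation was the one with atfs-1 present. For acly-2 and lsd-1, where nhr-180 stood lowest, neither effect was called. The calcium-activated potassium channel gene kcnl-1 (WBGene00007176, chromosome V from 19565382 to 19606124) had 7.4, 5.36 and 8.84 CPM in the double mutant, against 5.29, 11.8 and 10.7 CPM in atfs-1(null). It had 130 and 118 CPM in nhr-180, against 10.4, 9.9 and 9.6 CPM in wildtype. Both nhr-180 libraries were above 100 CPM, and no other library reached 12 CPM. The interaction was -3.99 ± 0.40 (adjusted p = 0.000931). The neuropeptide-like gene nlp-25, which begins at 19606180 next to kcnl-1, had 21.0, 22.3 and 14.6 CPM in the double mutant, 13.3, 15.9 and 10.2 CPM in atfs-1(null), 81.0 and 83.2 CPM in nhr-180 and 9.75, 4.35 and 6.75 CPM in wildtype (-3.01 ± 0.41, adjusted p = 0.00498).

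The most negative interaction of all belonged to T22F3.11, named after its values were seen, at -6.54 ± 0.38 (adjusted p = 3.95e-05). It had 0.606, 0.618 and 0.517 CPM in the double mutant, against 1.05, 0.763 and 0.911 CPM in atfs-1(null), and 37.2 and 27.8 CPM in nhr-180, against 0.609, 0.647 and 0.35 CPM in wildtype. The predicted chemoreceptor gene srw-85 ran the other way, with nhr-180 lowest. It had 28.6, 28.1 and 26 CPM in the double mutant, against 28.9, 56.3 and 46.5 CPM in atfs-1(null), and 0.0893 and 0.181 CPM (2 and 4 counts) in nhr-180, against 10.8, 16.7 and 13.6 CPM in wildtype. Its effect was -0.67 ± 0.24 without atfs-1 and -6.61 ± 0.46 with it, and the interaction 5.94 ± 0.53 (adjusted p = 0.000507). The size of that coefficient rests on 6 counts in nhr-180. This was also the gene whose sign differed on the linear scale, where the difference of differences was -2.76 CPM. Of kcnl-1, nlp-25, T22F3.11 and srw-85, all were kept in all 11 fits.

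The gap junction gene inx-3 and the folate transporter family gene folt-2 were also lowest in nhr-180, and folt-2 was chosen after its values were seen. Levels of folt-2 averaged 266 ± 9.13 CPM in the double mutant, 270 ± 48.9 CPM in atfs-1(null), 98.3 ± 7.91 CPM in nhr-180 and 297 ± 11.5 CPM in wildtype, and its interaction was 1.57 ± 0.22 (adjusted p = 0.00599). The call was lost without nhr-180 replicate 2 (0.0621). For inx-3 the means were 11.3 ± 1.46 CPM in the double mutant, 7.17 ± 1.61 CPM in atfs-1(null), 4.07 ± 0.187 CPM in nhr-180 and 8.13 ± 0.269 CPM in wildtype (1.65 ± 0.28, adjusted p = 0.0204). That call was lost without double mutant replicate 1 (0.0634), nhr-180 replicate 2 (0.119) or 3 (0.147), or wildtype replicate 1 (0.0526) or 3 (0.0706).

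In another group, transcript was higher in both genotypes without atfs-1 than in either genotype with it. The beta-tubulin gene tbb-6, which is known to be induced by mitochondrial stress independently of atfs-1, had 682, 673 and 524 CPM in the double mutant, against 589, 694 and 510 CPM in atfs-1(null). It had 3.84 and 3.89 CPM in nhr-180, against 23.2, 28.4 and 25.6 CPM in wildtype. Libraries without atfs-1 overlapped each other and lay above all others, while both nhr-180 libraries lay below wildtype. The effect of the nhr-180 mutation was 0.07 ± 0.16 without atfs-1 and -2.73 ± 0.21 with it, and the interaction 2.80 ± 0.25 (adjusted p = 0.000507), kept in all 11 fits. Read the other way, loss of atfs-1 raised tbb-6 by 7.34 ± 0.25 in nhr-180 mutants and by 4.54 ± 0.18 in animals with wildtype nhr-180. The effect of atfs-1 loss was called for 2961 genes (18.5%) in nhr-180 mutants, 1647 higher (10.3%) and 1314 lower (8.21%), and for 2291 genes (14.3%) with wildtype nhr-180, 1207 higher (7.54%) and 1084 lower (6.77%).

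The lysozyme gene lys-7 was arranged like tbb-6, but with the opposite direction with atfs-1 present. It averaged 182 ± 20.3 CPM in the double mutant, 192 ± 36.8 CPM in atfs-1(null), 41 ± 1.1 CPM in nhr-180 and 16.6 ± 0.757 CPM in wildtype, with an interaction of -1.38 ± 0.23 (adjusted p = 0.0167). Leaving out double mutant replicate 1 (0.0606) or 2 (0.0624), nhr-180 replicate 2 (0.0969) or 3 (0.086), or wildtype replicate 1 (0.0524) or 3 (0.0706) ended the call. The acyltransferase gene oac-7 (1.96 ± 0.39, adjusted p = 0.0396) averaged 5.89 ± 0.115 CPM in the double mutant, 4.05 ± 0.937 CPM in atfs-1(null), 0.629 ± 0.00549 CPM in nhr-180 and 1.69 ± 0.505 CPM in wildtype. The ABC transporter gene mrp-4 (1.78 ± 0.33, adjusted p = 0.0288) did not share this arrangement. Its atfs-1(null) libraries overlapped wildtype, and their mean lay below that of wildtype. Levels of mrp-4 averaged 89.5 ± 8.48 CPM in the double mutant and 49.8 ± 13.2 CPM in atfs-1(null). They averaged 30.1 ± 9.68 CPM in nhr-180 and 57.8 ± 2.19 CPM in wildtype. The call of oac-7 was kept only without atfs-1(null) replicate 1 or 2 or wildtype replicate 1 (0.0778 to 0.223 in the other 8 fits), and that of mrp-4 only without atfs-1(null) replicate 1 or 3 or nhr-180 replicate 2 (0.0562 to 0.165).

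The 11 genes with a positive interaction that were called higher without atfs-1 only included yolk protein and cuticle collagen genes. These were vit-4, vit-5, vit-6, col-143 and col-95. The others were Y62H9A.3, ZK813.3, F55B11.3, K09E3.7, Y37D8A.19 and K10C2.14, which have no gene-class name and are left out by the naming rule. Vitellogenins are yolk precursors that the intestine makes from the end of larval life onward. All 6 measured vitellogenin genes were called higher in the double mutant than in atfs-1(null), with a median log2 fold change of 4.43, and none was called in nhr-180 against wildtype, where the median was 0.60. The interaction was positive in all 6, with a median of 3.83 against 0.01 over all genes tested, and was called for vit-4, vit-5 and vit-6. Without replicate 1 of atfs-1(null) it was called for all 6, with a median of 4.17.

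Levels of vit-4 were 100, 228 and 107 CPM in the double mutant, against 3.15, 0.424 and 2.34 CPM in atfs-1(null). They were 283 and 177 CPM in nhr-180, against 286, 121 and 208 CPM in wildtype. The double mutant thus lay far above atfs-1(null) and overlapped the other genotypes, and nhr-180 and wildtype overlapped. The interaction of vit-4 was 6.03 ± 0.88 (adjusted p = 0.00739), lost without nhr-180 replicate 2 (0.0625) or 3 (0.0992). For vit-5 the values were 779, 1390 and 656 CPM in the double mutant, 38.6, 9.92 and 39.5 CPM in atfs-1(null), 1290 and 753 CPM in nhr-180 and 940, 474 and 722 CPM in wildtype (4.49 ± 0.77, adjusted p = 0.0204). That call was lost without nhr-180 replicate 2 (0.1) or 3 (0.165) or wildtype replicate 3 (0.0646). All atfs-1(null) libraries were again lowest in vit-6, with means of 2770 ± 932 CPM in the double mutant, 190 ± 96.2 CPM in atfs-1(null), 3710 ± 1400 CPM in nhr-180 and 2290 ± 930 CPM in wildtype. Its interaction of 3.17 ± 0.65 (adjusted p = 0.0454) was kept only without atfs-1(null) replicate 1 or wildtype replicate 2 (0.0616 to 0.28 in the other fits). The remaining members were not called, with vit-2 at 2.81 ± 0.59 (adjusted p = 0.0511), vit-1 at 2.21 ± 0.51 (0.0797) and vit-3 at 4.53 ± 1.05 (0.0797). Since vit-3, vit-4 and vit-5 are near-identical, counts may be split among them in ways that these tables do not show.

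Of 148 measured collagen genes, 2 were called with a positive interaction, col-143 and col-95, and 1 with a negative one, col-113 (-1.89 ± 0.39, adjusted p = 0.0444). Over all genes tested 0.275% were called positive and 0.862% negative. Levels of col-143 were 43.9, 89.5 and 33.4 CPM in the double mutant, against 2.64, 0.763 and 0.868 CPM in atfs-1(null), and 20.1 and 23.4 CPM in nhr-180, against 21.3, 23.4 and 21.1 CPM in wildtype. The double mutant exceeded every other library, and the interaction of 5.29 ± 0.68 (adjusted p = 0.00372) was kept in all 11 fits. For col-95 the interaction was 3.67 ± 0.68 (adjusted p = 0.0292), with means of 9.19 ± 4.94 CPM in the double mutant, 0.522 ± 0.269 CPM in atfs-1(null), 1.55 ± 0.109 CPM in nhr-180 and 1.13 ± 0.304 CPM in wildtype. Its call was lost without atfs-1(null) replicate 2 (0.0789) or 3 (0.0537), either nhr-180 replicate (0.155 and 0.151), or wildtype replicate 1 (0.0696) or 3 (0.0919), and that of col-113 in 9 of 11 fits (0.0547 to 0.213), all but those without atfs-1(null) replicate 1 or wildtype replicate 1. The adult cuticle collagen gene col-19 averaged 326 ± 141 CPM in the double mutant, 27.7 ± 27.2 CPM in atfs-1(null), 1150 ± 139 CPM in nhr-180 and 497 ± 162 CPM in wildtype, and its interaction of 2.35 ± 0.88 was not called (adjusted p = 0.258) except without atfs-1(null) replicate 1 (0.00721). The gene col-19 lies wholly within the span of ZK1193.2, so reads may be shared between them. Without replicate 1 of atfs-1(null) 30 collagen genes were called with a positive and 3 with a negative interaction. In that fit calls over all genes rose as well, to 187 positive and 269 negative.

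Yolk and adult collagen genes are also markers of developmental stage, and those markers moved with these results. The summed level of vit-2, vit-6 and col-19 was 4320 to 7740 CPM in the double mutant, 259 to 688 CPM in atfs-1(null), 5970 to 9310 CPM in nhr-180 and 2720 to 6270 CPM in wildtype. The summed level of 5 markers of the late larval molt was 1050 to 1480 CPM in the double mutant, 859 to 1130 CPM in atfs-1(null), 1570 and 1670 CPM in nhr-180 and 1650 to 2270 CPM in wildtype, and none of these 5 was called. Of 13 oocyte and female germline markers none was called either, with sums of 1910 to 2800 CPM in the double mutant, 586 to 1690 CPM in atfs-1(null), 510 to 609 CPM in nhr-180 and 324 to 686 CPM in wildtype. Oocyte transcripts thus were highest in the double mutant, without overlap with any other genotype. The part of stage and germline content in the yolk and collagen results was not tested. In whole animals, fewer cells of a type and less RNA per cell cannot be told apart.

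The longer list of 24 oocyte genes had a positive interaction in all 24 members, with a median of 0.85 and no call with all libraries, the medians of the effect being 1.02 without atfs-1 and 0.06 with it. Without replicate 1 of atfs-1(null) the median was 1.41 with 3 calls, and without both libraries that stand apart it was 1.62 with 13 calls. Genes of sperm had a negative median of -0.53 over 75 members, 4 of them positive. The sperm median was -0.15 when replicate 1 of atfs-1(null) was left out, -0.24 without replicate 2 of wildtype, -0.86 without replicate 1 of wildtype and 0.13 without both libraries that stand apart. Histone genes had a median of -0.78 over 31 members, and -0.17 without replicate 1 of atfs-1(null). The values of these germline lists therefore moved with the libraries that stand apart. Markers of body wall muscle, intestine, hypodermis, neurons and pharynx included no called gene, and all were detected, with the lowest genotype mean at 6.47 CPM. The summed level of 6 hypodermis markers was lower without atfs-1 than with it, at 3250 to 5370 CPM in the double mutant, 3480 to 5870 CPM in atfs-1(null), 6200 and 7600 CPM in nhr-180 and 5970 to 6040 CPM in wildtype, and its part in the collagen results was not tested.

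**Figure D3:**
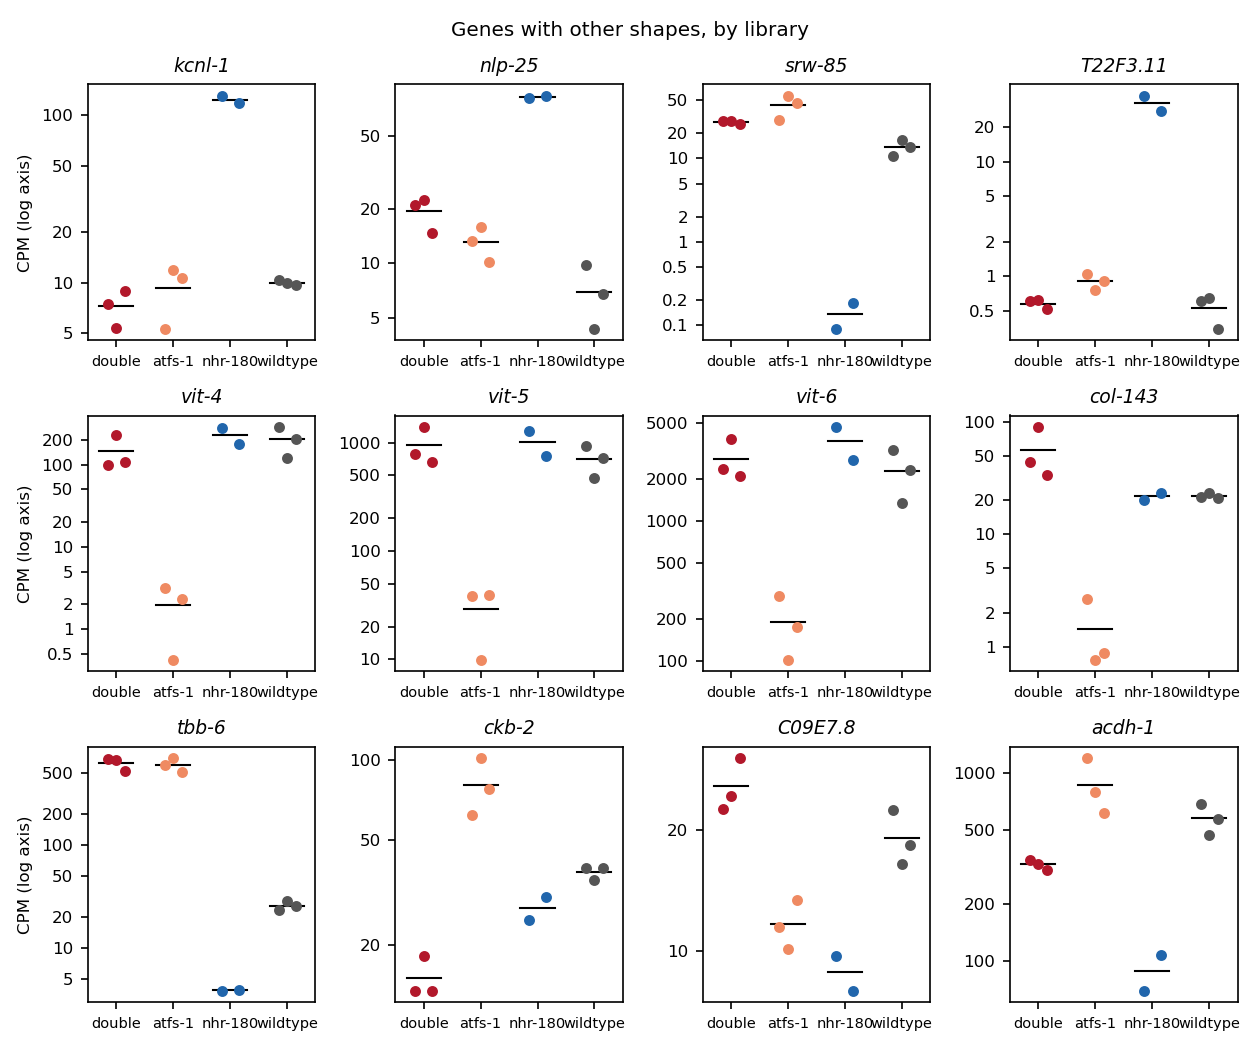
CPM per library on a log axis for 12 genes with other arrangements, with a bar at the mean of each genotype. In kcnl-1, nlp-25 and T22F3.11 the 2 nhr-180 points lie above all others, in the vit genes and col-143 the 3 atfs-1(null) points lie below all others, and in ckb-2 the 3 double mutant points lie below all others.

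The choline kinase gene ckb-2, whose product starts phosphatidylcholine synthesis from choline, was lowered by the nhr-180 mutation in animals without atfs-1. It had 13.4, 18.1 and 13.4 CPM in the double mutant, against 62, 102 and 78.1 CPM in atfs-1(null), and 24.9 and 30.3 CPM in nhr-180, against 39.2, 35.2 and 39.2 CPM in wildtype. The double mutant was lowest and atfs-1(null) highest, with no overlap between groups in either background. The effect was -2.43 ± 0.20 without atfs-1 (adjusted p = 0.000998) and -0.46 ± 0.22 with it (0.29), and the interaction -1.98 ± 0.29 (0.0076), lost without nhr-180 replicate 3 (0.0633). Others called lower without atfs-1 only were F40D4.13, B0507.8, gakh-1 and F41B4.3.

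Opposite directions in the 2 backgrounds were called for 6 genes, with C09E7.8 and C09E7.7 higher without atfs-1 and lower with it. These were named after their values were seen, and both lie on chromosome III between 6546720 and 6558587. C09E7.8 had 22.6, 24.3 and 30.2 CPM in the double mutant, against 11.5, 10.1 and 13.4 CPM in atfs-1(null), and 9.74 and 7.96 CPM in nhr-180, against 22.4, 16.5 and 18.4 CPM in wildtype. Either single mutant was thus lower than both wildtype and the double mutant. The effects were 1.14 ± 0.18 without atfs-1 and -1.11 ± 0.21 with it, and the interaction 2.25 ± 0.28 (adjusted p = 0.00339). For C09E7.7 the interaction was 2.33 ± 0.32 (adjusted p = 0.00516).

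The converse, lower without atfs-1 and higher with it, held for F22B7.9, F53A9.8, C42D4.1 and C08F11.13, also named after their values were seen. F22B7.9 had 11.3, 10.1 and 12.4 CPM in the double mutant, against 19.7, 28.9 and 21.4 CPM in atfs-1(null), and 13.9 and 13.4 CPM in nhr-180, against 4.64, 4.44 and 4.6 CPM in wildtype. Its effects were -1.05 ± 0.17 and 1.58 ± 0.19, and its interaction -2.64 ± 0.25 (adjusted p = 0.000699). F53A9.8 had an interaction of -2.94 ± 0.30, C42D4.1 of -1.85 ± 0.22 and C08F11.13 of -1.71 ± 0.22, with adjusted p of 0.000956, 0.00243 and 0.00348. The interactions of all 6 genes with opposite effects were kept in all 11 fits.

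The propionate shunt is a route for propionate breakdown used when vitamin B12 is scarce. Its gene acdh-1, for an acyl-CoA dehydrogenase, was lower with the nhr-180 mutation in both backgrounds. It had 346, 327 and 306 CPM in the double mutant, against 1200, 788 and 613 CPM in atfs-1(null), and 69.5 and 108 CPM in nhr-180, against 687, 471 and 572 CPM in wildtype. The mutant groups lay below their comparators without overlap each time. The effect was -1.41 ± 0.26 without atfs-1 (adjusted p = 0.0448) and -2.70 ± 0.31 with it (0.00147). The interaction of 1.29 ± 0.38 was not called (0.163), but was called without atfs-1(null) replicate 1 (0.0211). Its pathway neighbour hphd-1 (0.46 ± 0.21, adjusted p = 0.341) was not called.

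Of genes for amino acid and methyl metabolism, asns-2, an asparagine synthetase, was lowest in wildtype, with 89 ± 12.6 CPM in the double mutant, 109 ± 10.7 CPM in atfs-1(null), 99.6 ± 3.71 CPM in nhr-180 and 43.9 ± 4.76 CPM in wildtype. Its interaction of -1.47 ± 0.22 (adjusted p = 0.00821) was lost without nhr-180 replicate 2 (0.0582). The S-adenosylmethionine synthetase gene sams-1 had 550 ± 89.4 CPM in the double mutant, 518 ± 139 CPM in atfs-1(null), 452 ± 32 CPM in nhr-180 and 1230 ± 303 CPM in wildtype, but its interaction of 1.53 ± 0.35 was not called (adjusted p = 0.0771). The interaction of ahcy-1, which clears the S-adenosylhomocysteine left by methylation, was 0.63 ± 0.20 (0.195). Over 17 one-carbon and methionine cycle genes 14 had a positive interaction and none was called with all libraries, with a median of 0.47, the medians of the effect being 0.04 without atfs-1 and -0.42 with it.

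Mitochondrial stress genes also had a positive median, and 1 import gene was called. The mitochondrial Hsp70 gene hsp-6 had 522, 418 and 628 CPM in the double mutant, 331, 461 and 573 CPM in atfs-1(null), 684 and 582 CPM in nhr-180 and 1030, 980 and 994 CPM in wildtype. The double mutant and atfs-1(null) overlapped, and both nhr-180 libraries lay below wildtype, but the interaction of 0.86 ± 0.31 was not called (adjusted p = 0.239). That of the chaperonin gene hsp-60 was 0.82 ± 0.35 (0.302). None of the 16 genes of mitochondrial UPR and proteostasis was called, with 12 positive and a median of 0.37. Among 12 import genes tomm-70, an import receptor of the outer membrane, was called (0.86 ± 0.17, adjusted p = 0.0366). It had 79.4 ± 2.08 CPM in the double mutant, 72.1 ± 5.39 CPM in atfs-1(null), 97.0 ± 0.307 CPM in nhr-180 and 160 ± 7.31 CPM in wildtype. Its call was kept only without atfs-1(null) replicate 1 (0.0512 to 0.188 in the other 10 fits), and the gene lies wholly within the span of sma-2. The inner-membrane ATPase gene atad-3, chosen after its values were seen, was arranged likewise (1.04 ± 0.19, adjusted p = 0.0279), and its call was kept only without double mutant replicate 3 or atfs-1(null) replicate 1 or 3 (0.0612 to 0.163).

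Large sets of genes for growth and protein synthesis had small positive medians. All 20 cytosolic aminoacyl-tRNA synthetase genes, which charge tRNAs, had a positive interaction with a median of 0.46, and none was called. The medians of the effect were 0.09 without atfs-1 and -0.35 with it. Of 71 mitochondrial ribosomal protein genes 67 were positive with a median of 0.26, of 42 translation factors 36 with 0.23, of 24 ribosome biogenesis genes 22 with 0.32, and of 33 proteasome genes 31 with 0.24. Of 32 DNA replication and cell cycle genes 30 were positive with a median of 0.43. None of these genes was called with all libraries, and 1 DNA replication and cell cycle gene was called without replicate 1 of atfs-1(null). The median of mitochondrial ribosomal protein genes was 0.12 without nhr-180 replicate 2 and 0.41 without nhr-180 replicate 3, and leaving out atfs-1(null) replicate 1 or double mutant replicate 3 gave ribosome biogenesis genes a median of 0.20 or 0.21. Cytosolic ribosomal protein genes stood at -0.01 over 82 members, at -0.17 without nhr-180 replicate 2 and at 0.18 without nhr-180 replicate 3. Genes of one list are measured in the same 11 libraries, so a shared sign is a description of these libraries.

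Calls in the defence gene lists described here were negative with all libraries, where 0.862% of all genes tested were called negative. Of 139 C-type lectin genes 3 were called, all negative, with a median of -0.27. Besides clec-61 and clec-52 this was clec-67 (-1.04 ± 0.16, adjusted p = 0.0137), lost without double mutant replicate 2, nhr-180 replicate 2 or wildtype replicate 3 (0.0544 to 0.1). Without replicate 1 of atfs-1(null) 3 C-type lectin genes were called positive and 7 negative, and without both libraries that stand apart 3 positive and 9 negative. Of 69 antimicrobial peptide genes, 28 of which had a positive coefficient, 5 were called and these were negative, among them thn-2, a thaumatin-like gene at 117 CPM in the double mutant, 138 CPM in atfs-1(null), 72.0 CPM in nhr-180 and 18.8, 12.5 and 18 CPM in wildtype (-2.37 ± 0.32, adjusted p = 0.00504), beside thn-1, spp-2, nlp-25 and irg-5. Of 21 genes of the pals family, which mark the response to intracellular pathogens, 3 were called, all negative, and these were pals-32 (-2.21 ± 0.31), pals-33 (-4.14 ± 0.77) and pals-39 (-1.68 ± 0.33). The size of the pals-33 coefficient rests on few counts, 4, 2 and 0 in wildtype and 3, 5 and 7 in the double mutant. The calls of thn-2 and pals-32 were kept in all 11 fits, while that of pals-33 was kept in 4 (0.0539 to 0.185 in the 7 others) and that of pals-39 in 2 (0.0594 to 0.18 in the 9 others). Both lysozyme calls were negative, lys-7 and lys-3 (-1.96 ± 0.32), and lys-3, chosen after its values were seen, was lost without either nhr-180 library or wildtype replicate 3 (0.0692 to 0.106).

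Among 15 measured dod and pud genes, named for their response to insulin signalling, 5 were called, all negative, namely dod-3, dod-22 (-1.68 ± 0.23), pud-2.1 (-3.70 ± 0.59), pud-3 and pud-4. For pud-2.1 the wildtype libraries had only 3, 4 and 2 counts. The median of the dod and pud list was -1.50 with the counts and -0.63 with TPM values and a pseudocount of 1. Leaving out atfs-1(null) replicate 1 gave -0.84, where the median effect without atfs-1 was -0.12. With all libraries the medians of the effect were -0.33 without atfs-1 and 1.24 with it. The call of dod-22 was kept in all 11 fits, and that of pud-2.1 was lost without either nhr-180 library or wildtype replicate 3 (0.0515 to 0.086). The 7 lysosomal lipases had a median of -0.18, and of 0.02 when replicate 1 of atfs-1(null) was left out. Both calls among them were negative, lipl-3 and lipl-1 (-1.65 ± 0.28), and lipl-1 was kept in 4 fits (0.053 to 0.117 in the 7 others). Of 33 autophagy genes the Atg8 family genes lgg-1 (-1.14 ± 0.23, adjusted p = 0.0415) and lgg-2 (-1.02 ± 0.20, 0.0358) were called negative. The glyoxylate cycle gene icl-1, which lets fat be turned into sugar, was called negative too (-1.59 ± 0.31, 0.0352). The names lipl-1, lgg-1, lgg-2 and icl-1 were chosen after values were seen. Calls of lgg-1, lgg-2 and icl-1 were kept in 2, 1 and 1 of 11 fits, each of them without an atfs-1(null) library, with adjusted p between 0.0524 and 0.185 in the others. Of 66 cytochrome P450 genes, 32 of which had a positive coefficient, cyp-34A9 (-1.85 ± 0.33), cyp-32A1 (-1.78 ± 0.34) and cyp-32B1 (-1.65 ± 0.32) were called negative, and each call was kept in at most 3 fits, all without an atfs-1(null) library (0.0547 to 0.168 in the others). The ER chaperone gene hsp-4 (-0.55 ± 0.23, 0.297) and the glutathione transferase gene gst-4 (-0.34 ± 0.26, 0.557) were not called.

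**Figure D4:**
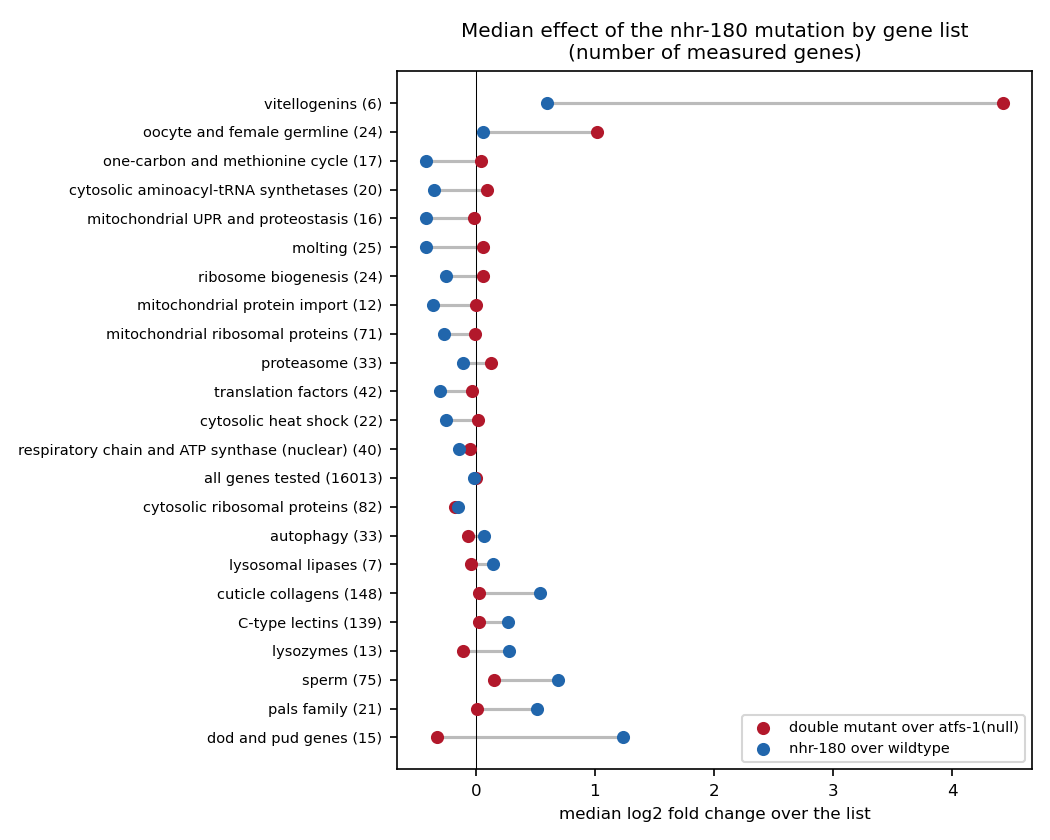
Median log2 fold change over the measured members of each gene list (number in brackets), double mutant over atfs-1(null) in red and nhr-180 over wildtype in blue, ordered by the median interaction. The red points lie between -0.33 and 0.15 except for the vitellogenins at 4.43 and oocyte genes at 1.02, and the blue points lie between -0.42 and 1.24.

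Of the 182 calls, 56 were kept in all 11 fits that left out 1 library each, 9 positive and 47 negative, and 85 were kept in at least 6 fits. A further 61 were kept in 2 or fewer. Among the 56, wildtype stood lowest for 28, nhr-180 highest for 8 and wildtype highest for 4. The fits called 65 genes without nhr-180 replicate 2 and 456 without atfs-1(null) replicate 1, the lowest and the highest count. Without nhr-180 replicate 3 there were 67, and with 1 nhr-180 library left its spread is assumed to be that of the other genotypes. Of the 30 genes taken by the naming rule for size, 17 were kept in all 11 fits, 12 with a negative and 5 with a positive interaction.

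**Figure D5:**
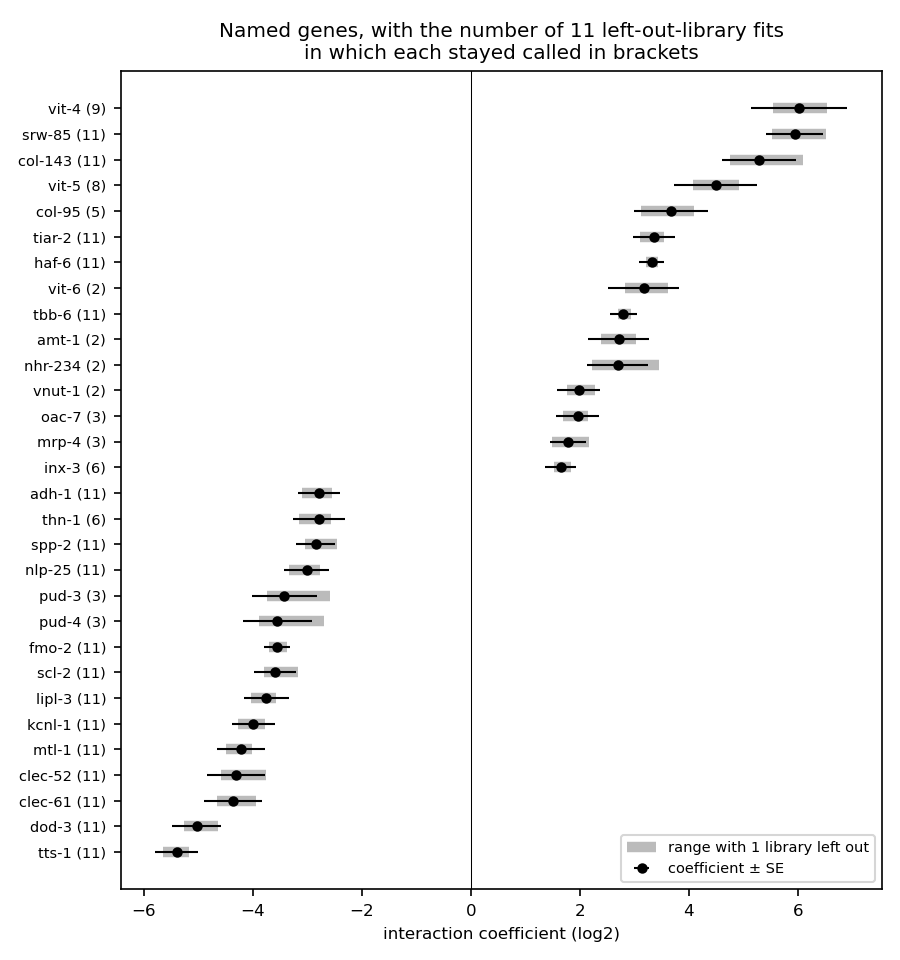
Interaction coefficient (log2) with its SE for the 15 largest positive and 15 largest negative genes of the naming rule, with the range over the 11 fits that each leave out 1 library as a grey bar. No grey bar crosses zero, and the number in brackets, the fits in which the gene stayed called, is 11 for 12 of the negative and 5 of the positive genes.

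Called genes were spread over all nuclear chromosomes, with the highest share on chromosome V. There, 76 of 3284 genes tested were called (2.31%), against 0.499% to 1.25% on the other nuclear chromosomes and 0 of 14 in mitochondrial DNA. Both mutated loci are on chromosome V. Within 1 Mb of nhr-180 (665919 to 667510), 6 of 210 genes tested were called (2.86%), namely lipl-3, F48G7.8, Y50D4A.6, srh-2, Y46H3D.1 and icl-1, and within 1 Mb of atfs-1 (14193663 to 14197700) 6 of 395 (1.52%). Linked variation carried along with either mutation cannot be told apart from the mutation itself in this design.

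Some called genes were close neighbours, and these were picked out after positions were seen. On chromosome V between 15443330 and 15449616 all 4 genes tested were called, T26H5.10, T26H5.9, T26H5.4 and T26H5.14. Between 19429387 and 19608419 on the same chromosome 4 of 22 genes were called, srw-85, oac-1, kcnl-1 and nlp-25, and in each of these nhr-180 stood apart, lowest in srw-85 and highest in the other 3. On chromosome X between 3403471 and 3563965, 3 of 21 were called, vit-5, ZK813.3 and vit-4, with atfs-1(null) lowest in each. By gene type, 172 of the 182 called genes were protein-coding, 6 were pseudogenes, and 4 were noncoding RNA genes.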

How the data were processed

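RNA was sequenced as stranded paired-end libraries from whole L4 larvae, per the labels' protocols. The deposited table holds read counts per gene and the submitters' processing notes name featureCounts 1.5.2, and the authors also deposited TPM values, used in alternatives. Sources used here do not name the aligner, the strand setting or the annotation release, and reads of overlapping genes may be shared. Counts were tested with edgeR 4.0.16 (R 4.3.3): filterByExpr, TMM normalization, 1 mean per genotype over 11 libraries, and quasi-likelihood tests of the interaction and of both nhr-180 effects, two-sided, with Benjamini-Hochberg adjustment over all 16013 genes. CPM values are counts over TMM-normalized library sizes. Coordinates are those of the deposited table, and 46863 of its genes have the same start and end in WBcel235. On simulated data with 15890 genes the interaction test recovered 2% of 2-fold and 69% of 4-fold changes, and 1 of 72 calls was false. The simulated counts were independent between genes, held no shift of a whole library, and were changed only in the double mutant. These shares therefore need not hold for the measured libraries.

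Gene members and lists were chosen with earlier results of these data known. Named genes were the 15 largest coefficients in each direction among calls with a name of the class-and-number kind and a mean of at least 5 CPM in a genotype, members of lists with at least 3 called genes, and a fixed set. Other names were chosen after their values were seen. Alternatives used DESeq2 1.42.0, limma 3.58.1 on log2 TPM with a pseudocount of 1 or 0.1, other filters and scalings, a replicate block, a residual component, a minimum fold change and each library left out. A planned search of promoter motifs was not run.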

Additional observations from a re-analysis of the deposited data

Results flagged for a closer look

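The effect of the nhr-180 mutation differed between animals without and with atfs-1 for 182 genes, by the test of the interaction itself. The values in brackets are interaction coefficients on the log2 scale, the effect without atfs-1 minus the effect with it, for the called genes named in the report. Some rest on few counts in the lowest genotype, among them those of srw-85, pals-33, pud-2.1 and lipl-3.

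The coefficient was below -2.5 in T22F3.11 (-6.54), tts-1 (-5.40), dod-3 (-5.03), clec-61 (-4.37), clec-52 (-4.31), mtl-1 (-4.22), pals-33 (-4.14), kcnl-1 (-3.99), lipl-3 (-3.75), pud-2.1 (-3.70), scl-2 (-3.59), fmo-2 (-3.55), pud-4 (-3.55), pud-3 (-3.42), nlp-25 (-3.01), F53A9.8 (-2.94), spp-2 (-2.85), thn-1 (-2.79), adh-1 (-2.79) and F22B7.9 (-2.64). It lay between -2.5 and 0 in thn-2 (-2.37), pals-32 (-2.21), ckb-2 (-1.98), lys-3 (-1.96), col-113 (-1.89), C42D4.1 (-1.85), cyp-34A9 (-1.85), cyp-32A1 (-1.78), C08F11.13 (-1.71), pals-39 (-1.68), dod-22 (-1.68), cyp-32B1 (-1.65), lipl-1 (-1.65), icl-1 (-1.59), asns-2 (-1.47), lys-7 (-1.38), lgg-1 (-1.14), clec-67 (-1.04) and lgg-2 (-1.02).

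The coefficient was positive in tomm-70 (0.86), atad-3 (1.04), folt-2 (1.57), inx-3 (1.65), mrp-4 (1.78), oac-7 (1.96), vnut-1 (1.98), C09E7.8 (2.25), C09E7.7 (2.33), nhr-234 (2.70), amt-1 (2.71), tbb-6 (2.80), vit-6 (3.17), haf-6 (3.32), tiar-2 (3.36), col-95 (3.67), D1014.7 (4.34), vit-5 (4.49), BE0003N10.6 (5.24), col-143 (5.29), srw-85 (5.94) and vit-4 (6.03). With 2 to 3 libraries per genotype no group was large enough to examine for a single far value.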

How the results depend on the processing

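The interaction was called for 182 genes, for 173 with DESeq2 size factors, 219 without the filter, and 150, 131 and 168 with limma on TPM values. It was called for 488 genes with the DESeq2 Wald test (200 positive, 288 negative), 482 without both libraries that stand apart (221 and 261), 1150 with the residual component as a covariate (697 and 453), 81 with a minimum fold change of 1.5 (14 and 67), and 323 at an adjusted p under 0.1 (92 and 231). Leaving out 1 library gave 65 to 456 genes, 10 to 187 positive and 54 to 269 negative. The positive share was 24.2%, but 41% with the Wald test, 45.9% without both libraries and 60.6% with the covariate. The cause was not tested.

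The effect without atfs-1 was called for 71 genes, for 150 without the filter, 241 with the Wald test, 113 on TPM values with a pseudocount of 1 and no minimum, 982 without both libraries, 296 with the covariate, and 27 to 812 with 1 library left out. The effect with atfs-1 was called for 358 genes, for 907 with the Wald test, 555 without both libraries, 1491 with the covariate, and 75 to 1042 with 1 library left out.

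The correlation of deviations from the genotype mean was -0.41 to 0.613 over 15 pairs of same-numbered libraries and exceeded 0.1 in 5. Over 30 pairs with different numbers it was -0.54 to 0.41 and exceeded 0.1 in 12. The highest value, 0.613, was that of replicate 3 of the double mutant with replicate 3 of atfs-1(null). Deviations within a genotype are tied to each other, so these values cannot decide whether replicate numbers pair the libraries. With a replicate block the interaction was called for 122 genes, 22 of them positive, and the effect with atfs-1 for 695.

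No gene whose interaction coefficient is printed changed sign under any alternative run. Over these genes, a call was lost 212 times and gained 6 times with 1 library left out, while 585 results stayed on their side of the threshold. Under the other alternatives calls were lost 73 times and gained 27 times, and 628 results stayed. The depth and 2 to 3 libraries per genotype limit the test to large differences.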
